A study of Mus musculus with 14 samples.

Results

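The sugar transporters of the kidney were followed here as 9 genes, taken by symbol from the 21878 genes listed for each mouse. The rule takes them by name and uses no measured value, but they were chosen with earlier results of these data known. They were the sodium-coupled transporters Slc5a1 (SGLT1), Slc5a2 (SGLT2), and Slc5a10 (SGLT5), and the facilitative transporters Slc2a1 (GLUT1), Slc2a2 (GLUT2), Slc2a3 (GLUT3), Slc2a4 (GLUT4), Slc2a5 (GLUT5), and Slc2a9 (GLUT9). All 9 were listed in every mouse and passed the filter on low values. RNA labelled as kidney, with no part of the organ named in the sources used here, came from 14 male C57BL/6J mice, namely 3 WT control mice, 3 Cfb-/- control mice, 4 WT diabetic mice, and 4 Cfb-/- diabetic mice. Cfb encodes complement factor B, a protein needed for activation of the alternative complement pathway, and the deletion was constitutive and not limited to a cell type. Diabetic mice of both genotypes were fed a high-fat diet (HFD) with 60% of calories from fat for 4 weeks and then received streptozotocin (STZ), a toxin of pancreatic beta cells, at 60 mg/kg on 5 days. Control mice ate chow with 10% of calories from fat and received citrate buffer alone. The study's methods give an age of 8 weeks at the start and 21 weeks from STZ to sacrifice, whereas the labels give 34 weeks without a starting point. The diet and STZ were always given together, so their effects cannot be told apart. The labels call the Cfb-/- genotype a knockdown, and they repeat the STZ and HFD treatment for the control mice while naming these healthy controls. The question for these genes was how their RNA differed between diabetic and control kidneys, and whether loss of Cfb changed that difference.

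Glucose filtered at the glomerulus is taken up again by the proximal tubule. SGLT2 on the brush border of the early proximal tubule carries most of it together with sodium, SGLT1 in the later part takes up what remains, and GLUT2 and GLUT1 on the basolateral side let glucose pass into the blood. SGLT5 and GLUT5 carry fructose, and SGLT2 is the target of the gliflozin drugs used in diabetes and diabetic kidney disease.

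On GRCm38.p6, Slc5a2 lies at chr7:128265683-128272430 on the + strand, Slc5a1 at chr5:33104219-33162699 on the + strand, and Slc5a10 at chr11:61672782-61720817 on the - strand. The facilitative members lie at chr4:119108745-119137330 (+, Slc2a1), chr3:28697903-28728361 (+, Slc2a2), chr6:122727809-122802363 (-, Slc2a3), chr11:69942286-69948216 (-, Slc2a4), chr4:150119344-150144168 (+, Slc2a5), and chr5:38349272-38503147 (-, Slc2a9). RefSeq promoter windows were matched for 6 of the 9 members. The 250 bases before each annotated start were searched on both strands for the E-box CACGTG, a sequence bound by glucose-responsive and other basic helix-loop-helix factors, which was in 6.02% of 32851 windows of the same length. Slc5a1 held it once, beginning 143 bases before its start, and the windows of Slc5a10, Slc2a1, Slc2a2, Slc2a5, and Slc2a9 did not hold these letters. The window of Slc5a1, which was higher in the WT diabetic kidney, is shown in its own 5′ to 3′ direction at chr5:33103969-33104218 on the + strand, with the E-box in capitals.
Slc5a1: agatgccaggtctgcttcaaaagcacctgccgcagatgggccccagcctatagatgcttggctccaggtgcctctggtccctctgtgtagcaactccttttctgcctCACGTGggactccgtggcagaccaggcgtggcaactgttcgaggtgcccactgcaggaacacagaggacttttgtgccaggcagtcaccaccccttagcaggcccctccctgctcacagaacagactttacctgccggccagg
A match of letters is a description of the window and not evidence that a factor binds there.

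The deposited unit was FPKM, in which fragments are adjusted for transcript length and for the mapped total, so levels of different genes are compared per length. Total FPKM was 372884 to 488196 in control and 330246 to 364953 in diabetic mice, and Kap or Gpx3 alone took 10.2% to 13.9% of the control totals and 2.49% to 4.6% of the diabetic totals. Read depth is unknown in absolute terms, and relative depth spanned 0.844 to 1. Cfb was 62.2 to 131 FPKM in WT control and 56.7 to 81.9 FPKM in WT diabetic mice, against 2.05 to 2.22 and 1.13 to 1.43 FPKM in the matching Cfb-/- groups. The label of kidney was checked against 10 proximal tubule markers, which summed to 2679 FPKM or more in every mouse.

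In the WT control kidney the order of mean levels was Slc5a2, Slc5a10, Slc2a2, Slc2a5, Slc2a1, Slc5a1, Slc2a4, Slc2a9, and Slc2a3. Slc5a2 stood at 259.7 ± 47.3 FPKM (SD, n = 3) and above Slc5a10 in 3 of 3 mice. Slc5a10 at 47.2 FPKM and Slc2a2 at 46.7 FPKM did not differ beyond their spread, nor did Slc2a5, Slc2a1, and Slc5a1 among themselves at 16.3, 16.1, and 15.3 FPKM. In the WT diabetic kidney Slc5a10 led at 119 ± 20.3 FPKM (n = 4), above every other member in 4 of 4 mice, and Slc5a2 came after Slc2a2 in mean level with overlapping ranges. The Cfb-/- control mice had Slc5a2 first at 157 ± 25.3 FPKM and Slc5a10 next at 61.1 ± 9.68 FPKM, with no overlap. The Cfb-/- diabetic mice had Slc5a10 first at 89.5 ± 18.3 FPKM and Slc5a2 next at 49.6 ± 34.4 FPKM, where the ranges overlapped and Slc5a10 was the higher in 3 of 4 mice. Slc2a4, Slc2a9, and Slc2a3 were the lowest members, in that order, in every mouse of every group.

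**Figure D1:**
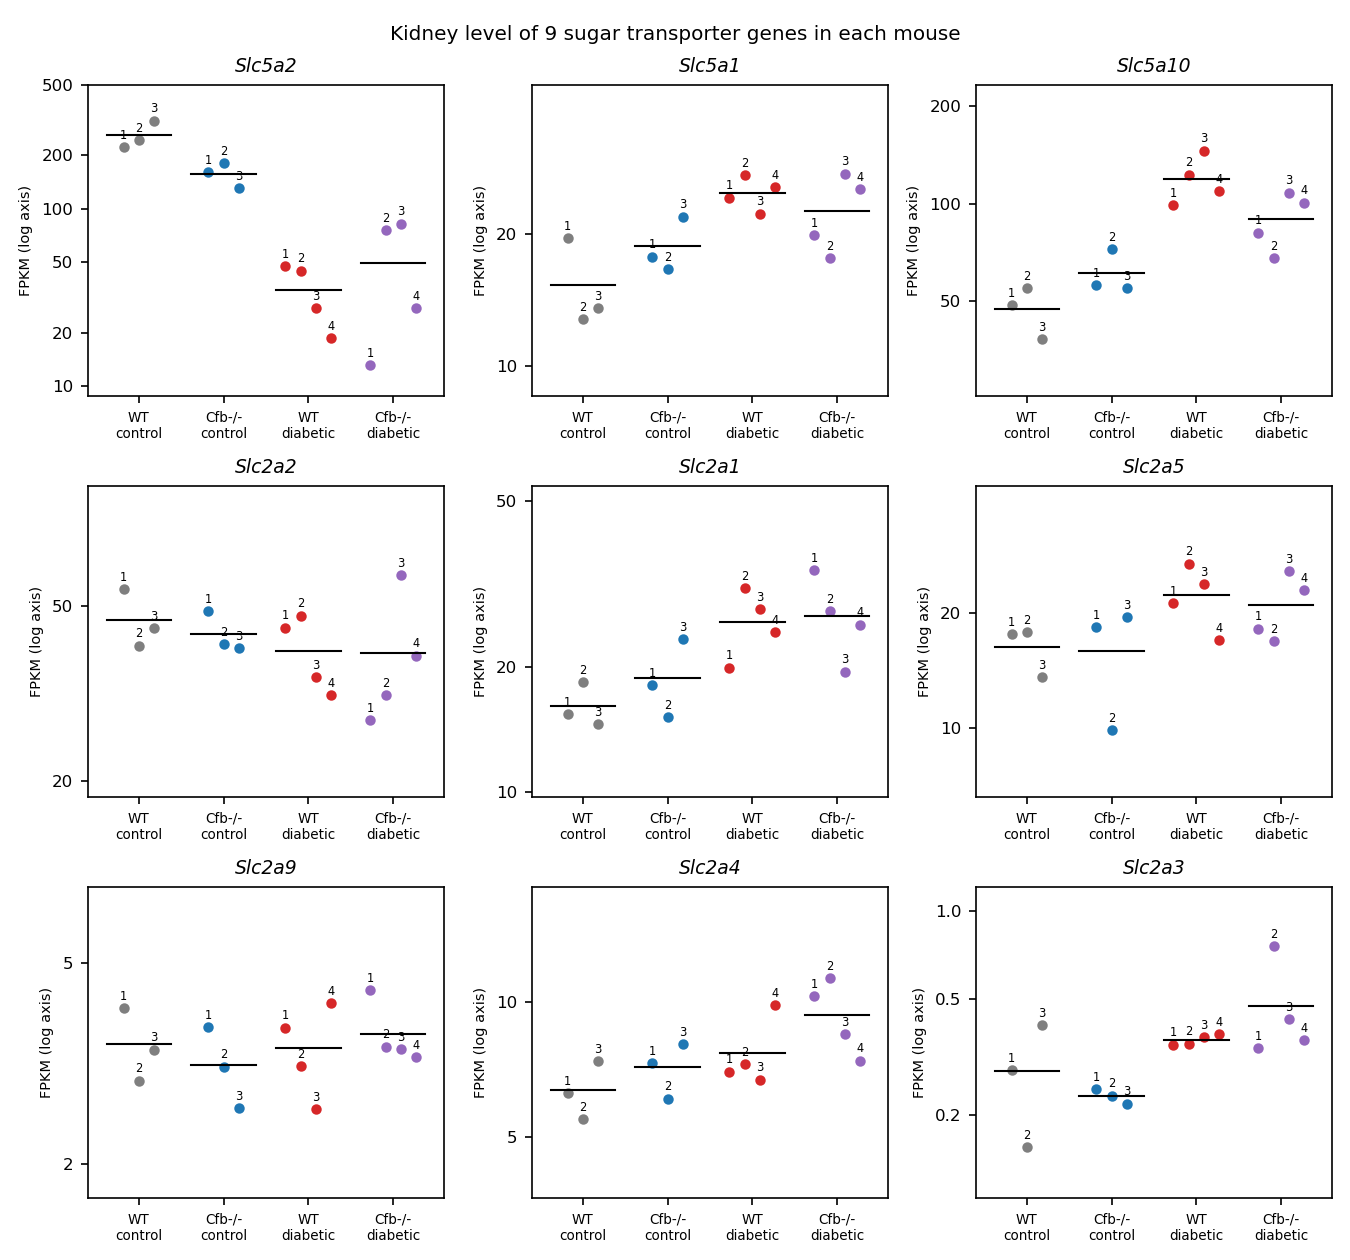
FPKM (log axis) of the 9 transporter genes in each of the 14 mice, by group. Points are mice numbered as replicates and black lines are group means. Slc5a2 lies at 130.0 FPKM or more in every control mouse and at 82.4 FPKM or less in every diabetic mouse, whereas Slc5a10 is higher in every WT diabetic than in every WT control mouse.

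Diabetes was associated with a fall of Slc5a2 in both genotypes and with a rise of Slc5a10 and Slc5a1 in WT mice. Of the 9 members, 3 were higher (Slc5a1, Slc5a10, and Slc2a1) and 1 was lower (Slc5a2) in WT diabetic than in WT control mice at an adjusted p under 0.05, and 5 were not called. Among all 14912 genes tested, 36.2% were called higher and 9.97% lower in this comparison. In Cfb-/- mice 2 members were higher with diabetes (Slc5a10 and Slc2a3), 1 was lower (Slc5a2), and 6 were not called, against 27.4% of all genes higher and 6.40% lower. The shares of members called higher and lower were therefore close to those of all genes in both genotypes. The median log2 fold change over the members was 0.33 in WT and 0.38 in Cfb-/- mice, beside 0.29 and 0.22 over all tested genes. With median-ratio scaling these medians over all genes became 0.03 and -0.01, and the share of called genes that were higher went from 78.4% to 50.3% in WT and from 81.0% to 56.8% in Cfb-/- mice. With quantile normalization the shares were 44.2% and 49.1%. A rise of about 0.3 on the log2 scale is thus what the typical gene showed in the unscaled values. Ranges did not overlap for 4 of the 9 members in WT mice (Slc5a1, Slc5a2, Slc5a10, and Slc2a1) and for 2 in Cfb-/- mice (Slc5a2 and Slc2a3), against 45.3% and 42.2% of all genes.

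**Figure D2:**
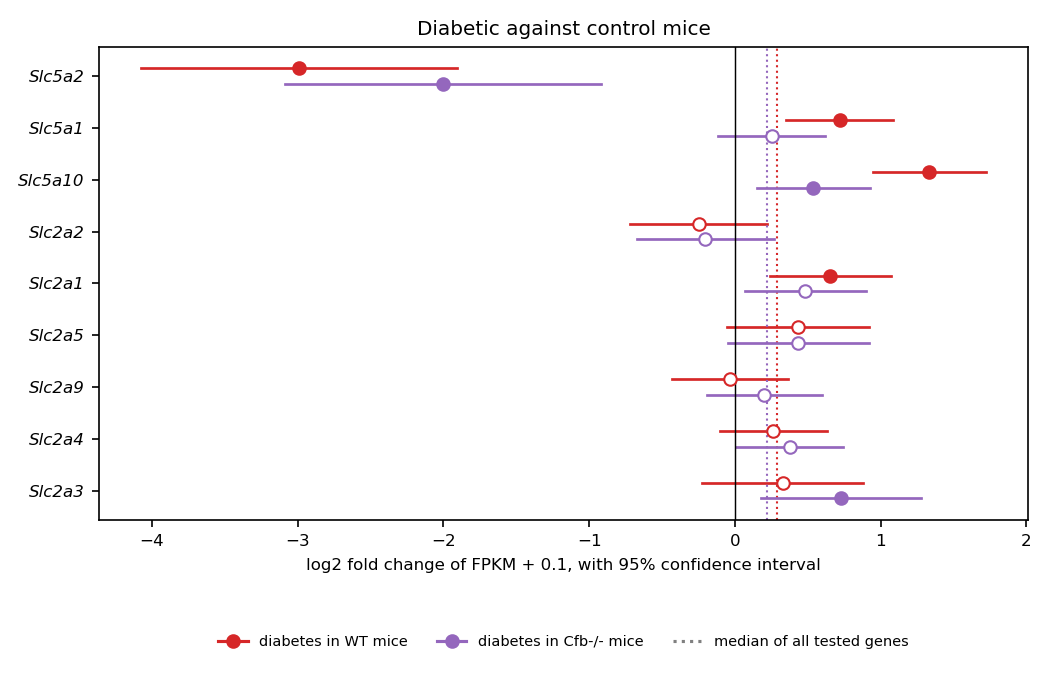
log2 fold change of FPKM + 0.1 between diabetic and control mice for each transporter gene, in WT mice (red) and Cfb-/- mice (purple), with 95% confidence intervals. Filled points have a limma adjusted p under 0.05 and dotted lines mark the median of all tested genes. Slc5a2 is the only member whose intervals lie below 0 in both genotypes, at -2.99 and -2.004.

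Slc5a2, the main glucose transporter of the early proximal tubule, measured 223, 244, and 313 FPKM in WT control mice and 47.5, 44.7, 27.6, and 18.7 FPKM in the WT diabetic group. Every diabetic mouse was far below every control mouse. The mean was 7.51 times lower with diabetes, and the log2 fold change was -2.99 (SE 0.51, adjusted p = 0.000385). The exact permutation p was 0.0286, the smallest that 4 against 3 mice allow. The Cfb-/- control mice had 161, 180.1, and 130.0 FPKM and the Cfb-/- diabetic mice 13.1, 75.3, 82.4, and 27.5 FPKM. These groups did not overlap either, although the 4 diabetic mice spread widely, with replicates 2 and 3 well above replicates 1 and 4. The mean was 3.17 times lower, and the log2 fold change was -2.004 (SE 0.51, adjusted p = 0.00713, exact permutation p = 0.0857). Both calls stood under all 22 alternatives, with log2 fold changes of -3.27 to -2.72 in WT and -2.37 to -1.49 in Cfb-/- mice.

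Some proximal tubule markers were lower in the same mice. In the general list, 5 of 10 genes in WT and 6 of 10 in Cfb-/- mice were lower with diabetes and 0 were higher, and 3 and 5 were lower with quantile normalization. Of all genes tested, 9.97% were lower and 36.2% higher in WT mice, and 6.40% and 27.4% in Cfb-/- mice. In the list for the early segments (S1 and S2), which was chosen without Slc5a2, 5 of 7 genes were lower with diabetes in both genotypes (4 in WT mice with quantile normalization), and the median log2 fold change was -1.34 in WT and -1.29 in Cfb-/- mice. This list shares Slc34a1, Slc22a6, Gatm, and Slc4a4 with the general list and includes Slc5a12, so the lists are not independent. The summed level of the 7 genes was 3095 to 3808 FPKM in WT control, 2698 to 3264 FPKM in Cfb-/- control, 1191 to 1630 FPKM in WT diabetic, and 805 to 1672 FPKM in Cfb-/- diabetic mice. Slc34a1, the sodium-phosphate cotransporter of the brush border, fell by 1.34 and 1.29 on the log2 scale, and Cyp2e1 fell by 2.11 and 2.40. None of the 7 genes was at 0 in any group. For the late segment (S3), 3 of 7 genes in WT and 4 of 7 in Cfb-/- mice were lower and 1 was higher in WT mice. The higher call was lost with either scaling, and 1 gene was lower in WT mice with quantile normalization. The S3 sums went from 2064 to 2780 FPKM in control mice of both genotypes to 638 to 1080 FPKM in diabetic mice. Acy3 had the largest mean of the 7 in each group, at 1750 and 1590 FPKM in WT and Cfb-/- control mice. In WT and Cfb-/- diabetic mice it was 488 and 409 FPKM, so the sums mainly follow this gene. Mean Slc7a12 was higher with diabetes in both genotypes and mean Slc22a19 in WT mice only, whereas the other listed means were lower in both. In RNA from kidney tissue, fewer cells of a type and less RNA per cell cannot be told apart. The part of proximal tubule loss in the fall of Slc5a2 was not tested.

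**Figure D3:**
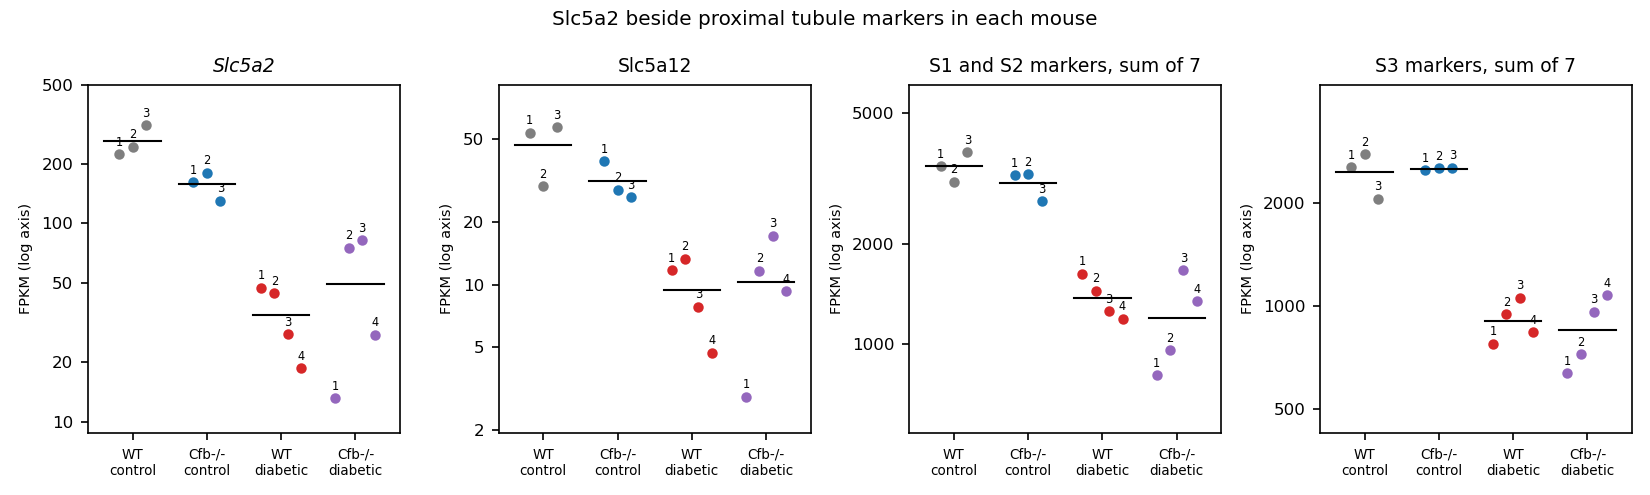
FPKM (log axis) of Slc5a2, of Slc5a12, and of the summed S1 and S2 markers and S3 markers in each mouse. Points are mice numbered as replicates and black lines are group means. All 4 measures are lower in every diabetic mouse than in every control mouse, and Slc5a2 spans 13.1 to 313 FPKM. Slc5a12 is also among the S1 and S2 markers. Slc34a1 has the largest mean of the S1 and S2 markers, and Acy3 has the largest mean of the S3 markers.

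Slc5a1, the high-affinity glucose and galactose transporter, moved in the other direction from Slc5a2. It measured 19.6, 12.8, and 13.5 FPKM in WT control mice and 24.2, 27.3, 22.3, and 25.6 FPKM in the WT diabetic group, with no overlap. The log2 fold change was 0.72 (SE 0.17, adjusted p = 0.00419), and the exact permutation p was 0.0286. The call stood under all 22 alternatives, at 0.44 to 0.91, and 0.44 was the value with median-ratio scaling. The highest limma adjusted p among the alternatives was 0.049, just under the threshold. In the Cfb-/- kidney Slc5a1 was 17.7, 16.6, and 21.9 FPKM without and 19.9, 17.6, 27.5, and 25.3 FPKM with diabetes. These ranges overlapped, and the log2 fold change of 0.25 (95% CI -0.12 to 0.62, adjusted p = 0.282) was not called under any of the 22 alternatives. The interaction of genotype and diabetes for Slc5a1 was -0.47 (95% CI -0.99 to 0.05, adjusted p = 0.779), so the effects were not shown to differ between genotypes.

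The balance of the 2 glucose cotransporters differed between control and diabetic mice. The ratio of Slc5a2 to Slc5a1, a measure chosen after the values were seen, was 11.4 to 23.1 in WT control and 5.93 to 10.8 in Cfb-/- control mice. It was 0.729 to 1.96 in WT diabetic and 0.660 to 4.28 in Cfb-/- diabetic mice, and no diabetic mouse reached the lowest control mouse. A scaling by 1 factor per library leaves this ratio as it is.

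Slc5a10, a transporter of fructose and mannose in the brush border, had the largest rise of the 9 members in WT mice. In WT mice it went from 48.6, 54.8, and 38.2 FPKM in controls to 98.8, 123, 146, and 109 FPKM with diabetes, with no overlap. The mean was 2.52 times higher and the log2 fold change was 1.33 (SE 0.18, adjusted p = 7.29e-05, exact permutation p = 0.0286), which stood under all 22 alternatives at 1.05 to 1.45. The Cfb-/- mice had 56.0, 72.2, and 55.0 FPKM in controls and 81.4, 67.9, 108, and 101 FPKM with diabetes. One diabetic mouse lay within the control range there, and the log2 fold change was 0.54 (SE 0.18, adjusted p = 0.0321, exact permutation p = 0.0857). This call was lost under 7 of 22 alternatives, among them median-ratio scaling (0.29, adjusted p = 0.331) and leaving out Cfb-/- diabetic replicate 3 or 4 or Cfb-/- control replicate 1 or 3 (0.44, 0.47, 0.48, and 0.47, adjusted p 0.0744 to 0.106). Grap and Fam83g overlap exons of Slc5a10 on the opposite strand, and how strand was used in counting is not given in the sources used here. Grap was 2.14 to 3.51 FPKM in control and 3.94 to 7.08 FPKM in diabetic mice, and Fam83g was 1.34 to 2.89 and 0.609 to 1.06 FPKM, all far below Slc5a10. For Slc5a2 the overlapping gene is BC017158, at 6.71 to 9.74 FPKM over all groups. For Slc2a1 it is the antisense gene Gm12868, not analysed here.

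Slc2a5, the facilitative fructose transporter, was 13.6 to 17.8 FPKM in WT control, 9.90 to 19.5 FPKM in Cfb-/- control, 17.0 to 26.9 FPKM in WT diabetic, and 16.8 to 25.7 FPKM in Cfb-/- diabetic mice. Its ranges overlapped between control and diabetic mice of each genotype. The log2 fold change was 0.43 in both genotypes (95% CI -0.05 to 0.92 in each, adjusted p = 0.128 in WT and 0.157 in Cfb-/- mice), and it was not called under any alternative. Of Slc5a10 and Slc2a5, then, only Slc5a10 was called, although their estimates in Cfb-/- mice were close, at 0.54 and 0.43.

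Of the basolateral glucose carriers, Slc2a1 rose in WT mice and Slc2a2 was not called. Slc2a1, the widely expressed GLUT1, was 15.4, 18.4, and 14.6 FPKM in WT control and 19.9, 30.9, 27.5, and 24.2 FPKM in WT diabetic mice. The ranges did not overlap, and the log2 fold change was 0.66 (SE 0.19, adjusted p = 0.0135, exact permutation p = 0.0571). The call was lost with median-ratio scaling (0.37, adjusted p = 0.130) and without WT control replicate 3 (0.59, adjusted p = 0.0506), and it stood under the other 20 alternatives. In Cfb-/- mice Slc2a1 was 18.1, 15.1, and 23.3 FPKM in controls and 34.1, 27.2, 19.5, and 25.3 FPKM with diabetes, which overlapped (0.48, 95% CI 0.07 to 0.90, adjusted p = 0.0664). It was called there only without Cfb-/- diabetic replicate 3 (0.62, adjusted p = 0.0186) or without Cfb-/- control replicate 3 (0.65, adjusted p = 0.0294). Markers of injured tubule rose in the same comparison, from sums of 49.6 to 73.1 FPKM in control to 153 to 386 FPKM in diabetic mice. Of these markers 7 of 7 were higher in both genotypes, against 36.2% of all genes in WT and 27.4% in Cfb-/- mice. Urothelium markers were uneven, at 0.721, 36.7, 50.5, and 17.6 FPKM in the WT diabetic mice and 0.279 to 0.744 FPKM in the WT control mice. Their part in the rise of Slc2a1 was not tested.

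Slc2a2, the low-affinity GLUT2 of the early proximal tubule, was 40.7 to 54.8 FPKM in WT control, 40.1 to 48.7 FPKM in Cfb-/- control, 31.4 to 47.6 FPKM in WT diabetic, and 27.6 to 58.9 FPKM in Cfb-/- diabetic mice. All 4 groups overlapped. The log2 fold change with diabetes was -0.25 in WT (95% CI -0.72 to 0.22, adjusted p = 0.364) and -0.20 in Cfb-/- mice (95% CI -0.67 to 0.27, adjusted p = 0.504). The interval for WT mice excludes a fall as large as that of Slc5a2, whose own interval was -4.07 to -1.90. Slc2a2 was not called under any alternative.

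Slc2a3, the high-affinity GLUT3 of neurons and leukocytes, was the lowest member, at 0.285, 0.156, and 0.407 FPKM in WT control and 0.349, 0.351, 0.369, and 0.379 FPKM in WT diabetic mice. The Cfb-/- control mice had 0.245, 0.233, and 0.219 FPKM and the Cfb-/- diabetic mice 0.339, 0.757, 0.427, and 0.362 FPKM, without overlap. The log2 fold change was 0.73 (SE 0.26, adjusted p = 0.0409) in Cfb-/- and 0.33 (95% CI -0.22 to 0.88, adjusted p = 0.307) in WT mice, and at these levels the pseudocount of 0.1 understates a change. The Cfb-/- call was lost under 13 of the 21 alternatives in which the gene was tested, among them quantile normalization (0.03, adjusted p = 0.935) and leaving out Cfb-/- diabetic replicate 2 (0.51, adjusted p = 0.122). Macrophage markers were 35.1 to 57.8 FPKM in sum in control mice and 117 to 202 FPKM in diabetic mice. Of these markers 6 of 6 were higher in WT and 5 of 6 in Cfb-/- mice, against 36.2% and 27.4% of all genes. Their part in the level of Slc2a3 was not tested.

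Slc2a4, the insulin-responsive GLUT4 of fat and muscle, was 5.47 to 7.37 FPKM in WT control, 6.09 to 8.06 FPKM in Cfb-/- control, 6.71 to 9.84 FPKM in WT diabetic, and 7.40 to 11.3 FPKM in Cfb-/- diabetic mice. Diabetes gave log2 fold changes of 0.26 (95% CI -0.10 to 0.63, adjusted p = 0.218) in WT and 0.38 (95% CI 0.01 to 0.74, adjusted p = 0.108) in Cfb-/- mice, neither of them called. In WT mice the estimate became -0.01 with median-ratio scaling and with quantile normalization, and in Cfb-/- mice the gene was called only without Cfb-/- diabetic replicate 4 (0.48, adjusted p = 0.0458). Adipocyte markers summed to 7.11 to 31.1 FPKM in WT diabetic mice and to 0.102 to 0.386 FPKM in Cfb-/- diabetic mice, in which 4 of the 6 listed markers were at 0 in every mouse. Mean Slc2a4 was 9.37 FPKM in the Cfb-/- diabetic and 7.70 FPKM in the WT diabetic mice, with overlapping ranges. Skeletal muscle markers summed to 0.497 to 1.19 FPKM in control and 1.21 to 2.12 FPKM in diabetic mice, so they were low but higher in every diabetic mouse. The part of either marker list in the level of Slc2a4 was not tested.

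Slc2a9, the urate carrier GLUT9, was 2.57 to 4.42 FPKM over all 14 mice, and its groups overlapped in every comparison. Its log2 fold change with diabetes was -0.03 (95% CI -0.43 to 0.36, adjusted p = 0.891) in WT and 0.20 (95% CI -0.19 to 0.60, adjusted p = 0.426) in Cfb-/- mice. Under quantile normalization the WT value became -0.46 (adjusted p = 0.0390), which was the only alternative of 22 that called it.

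The FPKM of the 9 members were summed as a relative measure, which is not an amount of RNA per kidney. Total FPKM was lower in every diabetic than in every control mouse, and other carriers such as Slc5a9 are left out. The sum was 389 to 448 FPKM in WT control, 301 to 344 FPKM in Cfb-/- control, 240.3 to 311 FPKM in WT diabetic, and 209 to 334 FPKM in Cfb-/- diabetic mice. The members whose means differed most between WT control and WT diabetic mice were Slc5a2, with means of 259.7 FPKM in WT control and 34.6 FPKM in WT diabetic mice, and Slc5a10, with means of 47.2 and 119 FPKM.

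Deletion of Cfb changed no member at an adjusted p under 0.05, in control or in diabetic mice. By limma, 0 of 9 members were called in control mice, with 0 of 9 at an unadjusted p under 0.05, and 0 of 9 in diabetic mice, with 1 of 9 at an unadjusted p under 0.05. Among all 14912 genes tested, 2614 in control and 448 in diabetic mice had an unadjusted p under 0.05. Only 0.00671% of all genes tested, Cfb itself, passed the adjusted threshold in either comparison. In control mice Slc5a2 was lower in every Cfb-/- than in every WT mouse, at 130.0 to 180.1 FPKM against 223 to 313 FPKM. The difference of -0.72 on the log2 scale (95% CI -1.88 to 0.44, adjusted p = 0.472) was not called, and the exact permutation p of 0.1 is the smallest that 3 against 3 mice allow. Slc5a10 was higher in every Cfb-/- than in every WT control mouse, by 0.38 (95% CI -0.04 to 0.79, adjusted p = 0.313). The groups of control mice did not overlap for these 2 of 9 members and for 13.8% of all genes.

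In diabetic mice no member separated the genotypes, against 2.75% of all genes. Slc5a10 was 0.42 lower on the log2 scale in Cfb-/- than in WT diabetic mice (95% CI -0.78 to -0.06, adjusted p = 1, exact permutation p = 0.114), with 2 of 4 Cfb-/- mice below every WT mouse. It was the member with an unadjusted limma p under 0.05. Slc5a2 differed by 0.26 (95% CI -0.74 to 1.26), an interval that allows a large difference in either direction. The remaining members differed by -0.16 to 0.28. The difference in Slc5a2 turned negative without Cfb-/- diabetic replicate 2 (-0.06) or 3 (-0.10), so it had no steady direction.

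**Figure D4:**
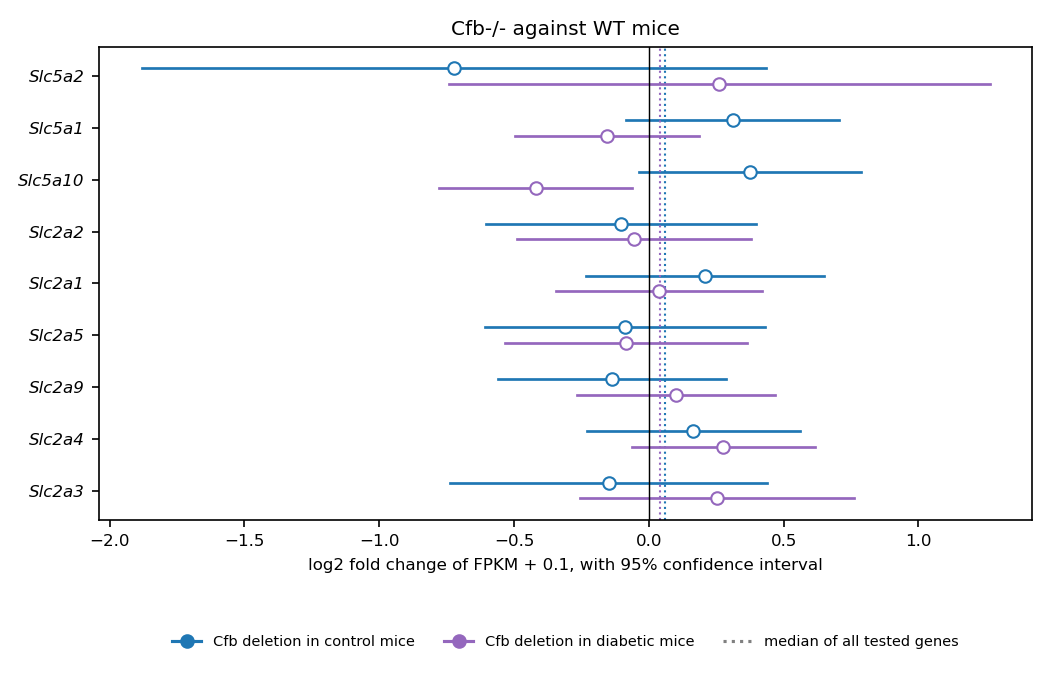
log2 fold change of FPKM + 0.1 between Cfb-/- and WT mice for each transporter gene, among control mice (blue) and among diabetic mice (purple), with 95% confidence intervals. Open points have a limma adjusted p of 0.05 or more and dotted lines mark the median of all tested genes. No point is filled, and Slc5a2 has the widest intervals, -1.88 to 0.44 in control and -0.74 to 1.26 in diabetic mice.

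The interaction of genotype and diabetes was called by limma for 0 of the 9 members, and for 0% of all genes tested, of which 861 had an unadjusted p under 0.05. The estimate for Slc5a10 was -0.80 (95% CI -1.34 to -0.25, adjusted p = 0.779), which was the only one of the 9 with an unadjusted p under 0.05. For Slc5a2 it was 0.98 (95% CI -0.55 to 2.52, adjusted p = 0.779), and for the 6 facilitative members it lay between -0.17 and 0.40. Each interaction draws on all 4 groups, so it shares mice with the comparisons above.

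Among the 11395 other tested genes with a mean of at least 1 FPKM, those whose profile over the 14 mice came closest to each member were found by the root mean square difference of centred log2 values. For Slc5a2, whose own SD was 1.48, the closest was Slc5a12 (0.39), a lactate transporter of the early proximal tubule, at 22.4 FPKM on average. For Slc5a10, with an SD of 0.572, they were Reep6 (0.165) and Mgst1 (0.248). For Slc5a1 (SD 0.353) they were Tm9sf2 (0.116) and Cflar (0.126), and for Slc2a1 (SD 0.391) Gal3st1 (0.109) and Cd82 (0.13). Slc2a2 lay nearest to Abca3 and Cldn2, Slc2a5 to Fam13a and Mocos, Slc2a4 to Fam81a and Clstn1, and Slc2a9 to Parn and Rgag4, at 0.108 to 0.171. Slc2a3, below 1 FPKM, was left out. These are descriptions over mice that share the contrast of diabetes, and a small difference for a member with a small SD says little.

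The other members of the SLC2 and SLC5 families moved in both directions. Of 16 listed, 12 passed the filter, and with diabetes 3 were higher and 2 lower in WT mice, and 1 was higher and 2 lower in Cfb-/- mice. Over all genes tested 36.2% were higher and 9.97% lower in WT mice, and 27.4% and 6.40% in Cfb-/- mice. Slc5a12 fell by 2.36 (SE 0.48, adjusted p = 0.00152) in WT and by 1.84 (SE 0.48, adjusted p = 0.00916) in Cfb-/- mice on the log2 scale. It went from 53.8, 29.7, and 57.4 FPKM to 11.7, 13.3, 7.83, and 4.70 FPKM in WT mice, and from 39.3, 28.6, and 26.3 FPKM to 2.88, 11.7, 17.2, and 9.29 FPKM in Cfb-/- mice, without overlap in either. Slc2a12 fell by 0.84 and by 0.68, and its values were -1.46 and -1.21 with quantile normalization. Slc2a6, a lysosomal carrier of myeloid cells, rose by 1.86 and 1.40 but was at or below 1.66 FPKM in every mouse. With quantile normalization its values were 1.12 and 0.73, and the call in Cfb-/- mice was lost (adjusted p = 0.198). Slc5a3, the myo-inositol transporter induced by hypertonicity, rose by 1.75 (adjusted p = 0.00594) in WT mice and had a log2 fold change of 0.17 in Cfb-/- mice. It was 4.25 to 9.80 FPKM in WT control and 9.06 to 28.9 FPKM in Cfb-/- control mice. The diabetic ranges overlapped, at 11.4 to 34.0 FPKM in WT and 12.1 to 23.5 FPKM in Cfb-/- mice. The WT rise of Slc2a10 (0.74) was lost with median-ratio scaling (0.53) and became -0.05 under quantile normalization. With either scaling 2 genes were higher and 4 lower in WT mice. No gene of the list was called in either comparison of genotypes or for the interaction, so the effects of diabetes were not shown to differ between genotypes.

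Partners and regulators of the transporters moved in both directions. All 15 listed genes were tested, and in WT mice 6 were higher and 6 lower with diabetes, whereas in Cfb-/- mice 3 were higher and 4 lower. The shares of all genes were 36.2% higher and 9.97% lower in WT mice, and 27.4% and 6.40% in Cfb-/- mice. With median-ratio scaling 5 were higher and 8 lower in WT mice and 2 and 5 in Cfb-/- mice, and with quantile normalization 4 and 5 in WT mice and 3 and 4 in Cfb-/- mice. Pdzk1ip1 (MAP17), the partner protein of SGLT2, fell by 0.80 (adjusted p = 0.000608) in WT mice, from 393, 619, and 553 FPKM to 289, 313, 274, and 299 FPKM, and had a log2 fold change of -0.32 (adjusted p = 0.107) in Cfb-/- mice. It was called there with median-ratio scaling (-0.56, adjusted p = 0.0299), and its WT value was -0.51 with quantile normalization. Its Cfb-/- values were 329 to 438 FPKM in control and 278 to 321 FPKM in diabetic mice. The scaffold Pdzk1 fell by 0.54 and 0.70, and Slc9a3r1 (NHERF1) fell by 0.55 and 0.37 (-0.31 and -0.23 with quantile normalization). Hnf4a, a transcription factor of the proximal tubule, fell by 0.75 and 0.79, from 157 to 198 FPKM in control to 81.0 to 123 FPKM in diabetic mice. Pdzk1 was not called in WT mice under quantile normalization (-0.26).

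Among the genes of this list that rose, Sgk1, a kinase that raises the activity of SGLT1 and of sodium channels, rose by 1.86 (SE 0.26, adjusted p = 0.000106) in WT and 1.73 (SE 0.26, adjusted p = 0.0002) in Cfb-/- mice. It was 32.0, 13.2, and 20.3 FPKM in WT control against 70.1, 112, 60.9, and 64.7 FPKM in WT diabetic mice. Txnip, an arrestin that removes GLUT1 from the cell surface and is induced by glucose, rose by 0.96 and 0.62, and its relative Arrdc4 rose by 1.32 and 1.01. The rise of Txnip in Cfb-/- mice was not called with median-ratio scaling (0.38, adjusted p = 0.103). Hif1a, a transcription factor of the response to low oxygen, rose by 1.26 (adjusted p = 0.000545) in WT mice and had a log2 fold change of 0.57 (adjusted p = 0.063) in Cfb-/- mice. No gene of the list was called between genotypes or for the interaction.

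In the list of 5 other proteins of tubular reabsorption, 1 was higher and 2 were lower in WT diabetic mice, and 1 was lower in Cfb-/- diabetic mice. Of all genes tested, 36.2% were higher and 9.97% lower in WT mice, and 27.4% and 6.40% in Cfb-/- mice. With median-ratio scaling 3 were lower in Cfb-/- mice, namely Slc22a12, Fxyd2 (-0.72), and Slc9a3 (-0.79). The urate transporter Slc22a12 fell by 0.96 and 0.87, and its WT value was -0.60 with quantile normalization. The sodium pump subunit Atp1b1 rose by 0.60 in WT mice, a call lost with median-ratio scaling (0.31), and its value was 1.04 with quantile normalization, under which it was also called in Cfb-/- mice (0.59). The pump regulator Fxyd2 fell by 0.79 in WT mice, a call lost with quantile normalization (-0.17). The exchanger Slc9a3 and the carrier Slc16a9 were not called in either genotype in the unscaled values.

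**Figure D5:**
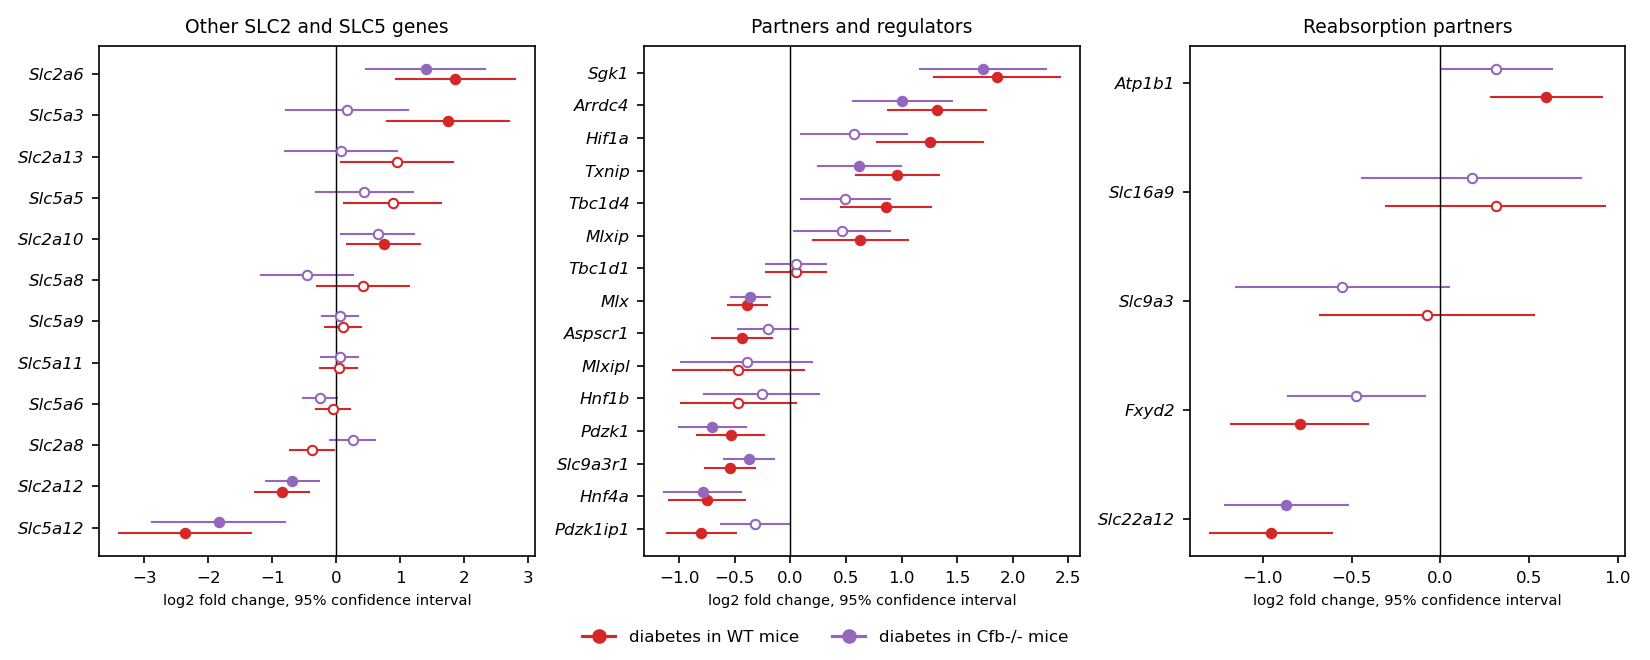
log2 fold change of FPKM + 0.1 with diabetes for the genes of 3 lists, in WT (red) and Cfb-/- (purple) mice, with 95% confidence intervals. Filled points have a limma adjusted p under 0.05. Slc5a12 has the lowest values, -2.36 and -1.84, and Slc2a6 and Sgk1 the highest in WT mice, both 1.86.

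The remaining marker lists were measured for the cell types that a kidney sample can hold. With diabetes in WT mice, markers were higher for 3 of 5 genes of the thick ascending limb, 0 of 4 of the distal convoluted tubule, 3 of 7 of the collecting duct, 2 of 5 of podocytes, 3 of 5 of endothelium, 4 of 6 of T and B cells, 1 of 4 of neutrophils, 5 of 5 tested of adipocytes, 6 of 6 of urothelium, 2 of 3 tested of skeletal muscle, and 1 of 1 tested of adrenal gland. Markers were lower for 2 of 5 genes of red blood cells, 1 of 5 of the thick ascending limb, and 1 of 7 of the collecting duct. Of all genes tested, 36.2% were higher and 9.97% lower in WT mice, so several of these counts lie near the share of all genes. In Cfb-/- mice, where 27.4% of all genes were higher and 6.40% lower, the adipocyte, urothelium, collecting duct, and adrenal lists had 0 called genes. Higher there were 5 of 5 podocyte genes (3 with quantile normalization), 3 of 5 of endothelium, and 2 of 5 of the thick ascending limb. So were 2 of 6 of T and B cells, and 1 gene each of distal convoluted tubule, neutrophils, and skeletal muscle. Lower were 4 of 5 red blood cell genes and 1 gene each of the thick ascending limb and neutrophils. No listed marker was called between genotypes or for the interaction. The higher neutrophil call in Cfb-/- mice was lost with either scaling. Several of the WT counts above change with scaling. With median-ratio scaling, 0 podocyte, 0 collecting duct, 2 thick ascending limb, 2 endothelium, 2 T and B cell, and 0 adrenal genes were higher, and 4 red blood cell genes and 1 distal convoluted tubule gene were lower. With quantile normalization, 1 podocyte, 2 collecting duct, 4 thick ascending limb, 1 distal convoluted tubule, 0 T and B cell, 0 neutrophil, 2 adipocyte, 5 urothelium, 1 skeletal muscle, and 0 adrenal genes were higher. Lower under quantile normalization were 3 red blood cell genes, 0 of the thick ascending limb, 1 of T and B cells, and 1 of skeletal muscle. Slc5a12 is among the early segment markers. Slc5a2 and these markers were measured in the same mice, so their falls are not independent of each other.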

How the data were processed

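Kidney RNA of 14 mice was measured by stranded, paired-end mRNA sequencing. The submitters' processing notes name Trimmomatic, HISAT2, Cufflinks, HTSeq, and DESeq without versions, and the build GRCm38.p6. FPKM is the unit the authors deposited, 1 value for each gene in each mouse and no counts, so the count model of the study could not be used. Groups came from the sample labels. No further scaling was applied. Values were tested as log2(FPKM + 0.1) by 1 limma fit (version 3.58.1, R 4.3.3) to all 14 mice, using the trend option and a mean per group. A gene entered the fit when 3 or more mice reached an FPKM of 0.1 (14912 of 21878 genes), and p-values were adjusted over all of them by Benjamini-Hochberg, with a threshold of 0.05. Fold changes on the log2(FPKM + 0.1) scale understate the change of low genes. Exact permutation tests were two-sided, on log2 values, with smallest p-values of 0.0286 for 4 against 3 or 4 mice and 0.1 for 3 against 3. The fit was tested on simulated data. Python 3.11.15 was used for tables and figures.

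The members and gene lists were chosen with earlier results of these data known. Named genes were the members, Cfb, up to 4 called genes per list and comparison with the largest change, and the 2 closest profiles of each member. Other genes named, namely Pdzk1ip1, Slc9a3r1, Slc2a10, Slc9a3, Slc16a9, Slc34a1, and Cyp2e1, were chosen after their values were seen. Some genes that these rules name are not reported here, and the counts of the lists leave them out. Gene positions and promoters were taken from RefSeq on GRCm38.p6, and overlapping genes from GENCODE vM21. Alternatives were other filters, pseudocounts, and scalings, the compared groups alone, a replicate block, and leaving out each mouse. Of the 22 alternatives, 14 left out a mouse. Where that mouse was outside the compared groups, the fold change could not move and only the error and the adjustment could.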

Additional observations from a re-analysis of the deposited data

Results flagged for a closer look

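Slc5a10 was flagged because the effect of diabetes differed between genotypes by the test of the difference itself at an unadjusted p under 0.05. The interaction was -0.80 on the log2 scale (SE 0.25) by limma, and it did not pass the adjustment over all genes (adjusted p = 0.779). The estimate stayed between -0.91 and -0.65 under the 21 alternatives, and it was not called under any of them. All 4 WT diabetic mice were above every WT control mouse, and 3 of 4 Cfb-/- diabetic mice were above every Cfb-/- control mouse. With 9 members tested for an interaction, 1 such result was found, beside 861 among all 14912 genes tested.

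Slc2a9 in the Cfb-/- diabetic mice was flagged for 1 outlying mouse. Replicate 1 had 4.42 FPKM, and the other 3 mice had 3.26 to 3.42 FPKM. Its gap to the nearest mouse was 0.863 of the range of the group, above Dixon's 95% critical value for 4 mice. Of the 18 groups of 4 mice examined for the 9 members this was the only one, and chance alone flags about 1 in 20 such groups.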

How the results depend on the processing

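The falls of Slc5a2 in both genotypes and the rises of Slc5a1 and Slc5a10 in WT mice kept their direction and their side of the threshold under all 22 alternatives. They were not equally firm. The highest limma adjusted p in WT mice was 0.049 for Slc5a1, 0.00355 for Slc5a2, and 0.00181 for Slc5a10. For Slc5a2 in Cfb-/- mice it was 0.0322. With diabetes in Cfb-/- mice, 3 members were called, against 1 member with no filter on low values, with median-ratio scaling, and with the replicate block, and 1 to 3 members when 1 mouse was left out. The single member was Slc5a2, and the low count of 1 without a mouse came without Cfb-/- control replicate 1. In WT mice 3 to 4 members were called when 1 mouse was left out. The Cfb deletion and interaction counts were 0 under every alternative. For mice of different groups with the same replicate number, correlations of their deviations from the group means were -0.388 to 0.243. Mice with different numbers were not compared, so this check cannot decide whether the numbers pair the mice. The replicate block left the count in WT mice at 4. The cause of these changes was not tested. DESeq2, listed as an alternative, was not run because it needs counts.

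Members that were not called changed sign in some alternatives. With quantile normalization, diabetes in WT mice gave -0.46 for Slc2a3 and -0.0088 for Slc2a4, diabetes in Cfb-/- mice gave -0.17 for Slc2a9, and the interaction was -0.016 for Slc2a2 and -0.033 for Slc2a5. With median-ratio scaling the values were -0.014 for Slc2a4 in WT mice, -0.036 for Slc2a9 in Cfb-/- mice, and -0.016 for Slc2a1 between the diabetic genotypes. With log2(FPKM + 1) the interaction of Slc2a5 was -0.0032. When 1 mouse was left out, the effect of diabetes in WT mice was -0.14 to 0.088 for Slc2a9. The deletion in control mice then gave -0.20 to 0.018 for Slc2a2, -0.41 to 0.082 for Slc2a3, and -0.26 to 0.22 for Slc2a5. The deletion in diabetic mice gave -0.10 to 0.78 for Slc5a2, -0.092 to 0.18 for Slc2a1, -0.27 to 0.091 for Slc2a2, -0.21 to 0.012 for Slc2a5, and -0.021 to 0.20 for Slc2a9. The interaction was -0.17 to 0.19 for Slc2a2 and -0.31 to 0.18 for Slc2a5.

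With FPKM values and no counts, the counting error behind Slc2a3, below 1 FPKM in every mouse, cannot be computed. Groups of 3 and 4 mice leave wide intervals for Slc2a5, Slc2a2, and Slc5a2, and the diet, STZ, and the composition of the kidney sample vary with the groups.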
